A study of Mus musculus with 6 samples.

Results

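The replication-dependent histone genes were compared between MA-10 cells, a line of mouse tumor Leydig cells, and STARKO1, a clone derived from 1 MA-10 cell after CRISPR/Cas9 editing of Star. Members were all genes of the deposited table whose symbol begins with Hist1h, Hist2h, Hist3h or Hist4h, which gave 65 of the 14774 genes. They comprised 6 genes for the linker histone H1, 18 for H2A, 17 for H2B, 11 for H3 and 13 for H4, and 2 of the 65 were annotated as processed pseudogenes. The Hist1 cluster on chromosome 13 held 53 members, the Hist2 cluster on chromosome 3 held 9, Hist3 on chromosome 11 held 2 and Hist4 on chromosome 6 held 1. Both cell lines were untreated and kept in their usual growth medium, and 3 libraries of each were made from total RNA with a strand-specific kit that does not select for a poly(A) tail. STARKO1 was a single clone, so a difference that comes with the loss of Star and one that came with the choice of that cell cannot be told apart. The labels do not say whether the libraries came from separate cultures, and the p-values measure the spread between these libraries alone.

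Histones H2A, H2B, H3 and H4 form the core around which DNA is wound, and H1 binds the DNA between cores. The genes described here are switched on mainly in S phase, when new DNA must be packaged, and lie in clusters of many near-identical copies. Their mRNAs are the main class of mRNA in animal cells that ends in a conserved stem-loop bound by SLBP rather than in a poly(A) tail, although several members can also be made as longer polyadenylated transcripts, particularly in cells that have stopped dividing. Such genes are therefore largely lost from poly(A)-selected libraries and are retained in total RNA.

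Star encodes a protein with a role in the transfer of cholesterol into mitochondria. It was lower in STARKO1 in all libraries, with 1064, 1261 and 697 counts for replicates 1 to 3 of MA-10 against 48, 46 and 36 (log2 fold change -5.09, edgeR adjusted p = 0.00121). The total estimated count ranged from 14114351 to 19530062 per library, at which 3 counts equalled 0.129 to 0.264 CPM (counts per 1000000 of the TMM-scaled library size). Values are listed in the order of replicates 1, 2 and 3. All 10 Leydig cell markers examined were detected above 10 counts in every library. Hsd3b1 was called lower in STARKO1 (log2 fold change -2.52, edgeR adjusted p = 0.00268). It held 27.8, 37.2 and 24.3 CPM in MA-10 and 5.12, 5.72 and 4.72 CPM in STARKO1. Cyp11a1 and Lhcgr were lower and Nr5a1 and Cyp17a1 higher without overlap, none of them called. Insl3, Gata4, Scarb1 and Fdx1 overlapped. The part of these differences in the results was not tested. The Sertoli, germ cell and macrophage markers tested (Dhh, Ddx4, Csf1r) were not called. Of the endothelial markers Cdh5, Pecam1 and Kdr, Cdh5 was at 26.1 to 41.3 CPM in MA-10 and 117 to 123 CPM in STARKO1. Pecam1 was under 1 CPM in every library and was not called, and Kdr was not among the 14774 genes. The part of Cdh5 in the results was not tested. MA-10 replicate 1 stood apart from the other 2 MA-10 libraries. The share of its total count assigned to 7SL RNA, a small cytoplasmic RNA without a poly(A) tail, was 1.81%, close to the 1.82% to 2.37% of STARKO1, against 14.4% and 6.63% in MA-10 replicates 2 and 3. Its level was nearer to the mean of STARKO1 than to either other MA-10 library for 46 of the 64 histone genes tested (71.9%) and for 60.5% of all genes tested. Fold changes without this library are given beside those fitted with it. For genes where it lay close to STARKO1, MA-10 replicates 2 and 3 were the libraries that differed. The fit without MA-10 replicate 2 is also given for Hist2h2aa1, Hist1h2bc, Hist1h2be and Hist1h3b. Which MA-10 libraries stand for the cell line was not tested, nor was the part of the 7SL share in the results.

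The element that defines these mRNAs was found in the annotated transcripts of 44 of the 65 members. It is 16 bases long, a 6-base stem on each side of a 4-base loop, and 24 of the 44 carried it with the same letters as Hist1h2bj and Hist1h2ag, the neighbouring pair that was called higher in STARKO1. The letters of Hist4h4 were shared by 7 members and those of Hist2h4 by 2. The stem-loops of these genes are shown 5′ to 3′ with 5 flanking bases on each side, with the stem and loop in capitals and GRCm38 coordinates.
Hist1h2bj (chr13:22043633-22043658, plus strand): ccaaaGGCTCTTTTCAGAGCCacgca
Hist1h2ag (chr13:22042478-22042503, minus strand): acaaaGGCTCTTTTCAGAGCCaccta
Hist1h2ad (chr13:23574890-23574915, plus strand): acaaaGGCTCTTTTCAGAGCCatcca
Hist2h4 (chr3:96262934-96262959, minus strand): ctaacGGCCCTTTTTAGGGCCaacca
Hist4h4 (chr6:136803993-136804018, minus strand): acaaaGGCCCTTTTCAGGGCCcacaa

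Of the 65 members, 56 matched 1 RefSeq gene with 1 promoter of 300 bases (250 before the start and 50 after it, build GRCm38.p6). Motifs were searched on both strands in each of the 32851 RefSeq promoters: the octamer ATTTGCAT, a binding site of Oct-1 known from H2B promoters, the TATA box TATAAA and the CCAAT box CCAAT. The octamer was found in 11 of the 56 histone promoters, 6 of 16 for H2A and 5 of 13 for H2B, and in 1.74% of all promoters. The TATA box was found in 32 of 56 against 13.6% of all promoters. CCAAT was found in 47 of 56 against 37.4%, in every window of the H1, H2A, H2B and H3 genes and in 3 of 12 H4 windows. Windows of head-to-head genes overlap, so these counts share sequence. The promoters of the genes called higher and of Hist2h2ab, the gene with the lowest fold change, are shown with these motifs in capitals, ATTGG being CCAAT on the other strand. The window of Hist1h2bj covers the RefSeq starts of both Hist1h2bj and Hist1h2ag.
Hist1h2bj (chr13:22042948-22043247, plus strand): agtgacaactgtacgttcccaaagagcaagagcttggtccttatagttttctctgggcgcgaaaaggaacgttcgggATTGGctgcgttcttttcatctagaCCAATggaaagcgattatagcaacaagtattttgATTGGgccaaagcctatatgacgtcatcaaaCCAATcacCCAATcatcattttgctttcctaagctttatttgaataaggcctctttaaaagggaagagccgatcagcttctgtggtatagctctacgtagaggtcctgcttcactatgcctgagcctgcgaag
Hist1h1a (chr13:23763418-23763717, plus strand): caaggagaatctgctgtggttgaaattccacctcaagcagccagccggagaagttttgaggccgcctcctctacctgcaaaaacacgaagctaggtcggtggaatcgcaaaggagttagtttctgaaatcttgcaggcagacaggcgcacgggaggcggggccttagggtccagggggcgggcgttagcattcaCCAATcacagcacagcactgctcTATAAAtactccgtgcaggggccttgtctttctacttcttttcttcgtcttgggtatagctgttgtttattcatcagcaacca
Hist1h2an (chr13:21787199-21787498, minus strand): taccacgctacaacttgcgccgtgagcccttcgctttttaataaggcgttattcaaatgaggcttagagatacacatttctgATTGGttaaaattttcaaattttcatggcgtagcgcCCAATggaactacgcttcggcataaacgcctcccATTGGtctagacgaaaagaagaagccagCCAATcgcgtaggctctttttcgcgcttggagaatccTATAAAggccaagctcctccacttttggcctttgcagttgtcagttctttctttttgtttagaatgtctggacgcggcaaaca
Hist2h2bb (chr3:96269450-96269749, plus strand): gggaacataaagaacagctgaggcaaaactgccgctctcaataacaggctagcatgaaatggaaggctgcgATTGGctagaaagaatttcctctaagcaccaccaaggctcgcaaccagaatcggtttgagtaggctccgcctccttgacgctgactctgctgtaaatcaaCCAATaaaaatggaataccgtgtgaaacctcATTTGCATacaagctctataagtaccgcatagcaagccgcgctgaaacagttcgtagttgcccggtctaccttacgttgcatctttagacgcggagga
Hist2h2ab (chr3:96219635-96219934, plus strand): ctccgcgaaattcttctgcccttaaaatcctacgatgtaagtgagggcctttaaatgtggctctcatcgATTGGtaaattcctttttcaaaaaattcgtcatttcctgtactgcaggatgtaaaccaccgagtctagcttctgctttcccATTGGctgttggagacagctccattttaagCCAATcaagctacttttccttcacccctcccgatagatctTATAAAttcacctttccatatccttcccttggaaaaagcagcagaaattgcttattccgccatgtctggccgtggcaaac

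The comparison asked whether histone mRNA levels differed between the cell lines. Of the 64 members tested, 5 were called higher in STARKO1 and 0 lower (edgeR quasi-likelihood test, Benjamini-Hochberg adjusted p under 0.05 over all 11939 genes tested). That is 7.81% of the members called higher, against 4.3% of all genes, and 0 called lower against 4.74%, with 9.04% of all genes called in either direction. The genes called were Hist1h1a, Hist1h2an, Hist1h2bj, Hist2h2bb and Hist1h2ag. At an unadjusted p under 0.05 there were 25 members, 17 higher and 8 lower, which is 39.1% against 37.6% of all genes. DESeq2 called 15 higher and 4 lower, with backgrounds of 11% and 17.5%. The same shares of all genes are the background for each count by class or list below. The remaining member, the pseudogene Hist1h2al, had at most 6 counts per library and was not tested.

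Members had fitted values in both directions and over a wide range, as the plot of fold changes shows. The fitted log2 fold change of STARKO1 against MA-10 was positive for 37 members and negative for 27 (49 and 15 with scaling by library size alone), with a median of 0.31 against -0.05 for all genes tested, and it ran from -3.28 for Hist2h2ab to 2.07 for Hist4h4. Another scaling moved the median of all genes to as much as 0.38, and relative to that of all genes the histone median was 0.36 with TMM and between 0.34 and 0.37 with library size or upper quartile scaling. The histone median was 0.075 with offsets for GC content and 0.70 with offsets for gene length. The STARKO1 libraries lay above all MA-10 libraries for 21 members (32.8%, against 21.5% of all genes) and below them for 1, Hist2h2be (1.56%, against 21%), and overlapped for 42. Without MA-10 replicate 1, 32 members were called higher and 16 lower, or 50% and 25%, against 34% and 31.7% of all genes. Of the tested members named in the text that did not pass with all 6 libraries, those other than Hist1h1c, Hist1h1t, Hist1h2ap and Hist2h2be passed without MA-10 replicate 1.

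**Figure D1:**
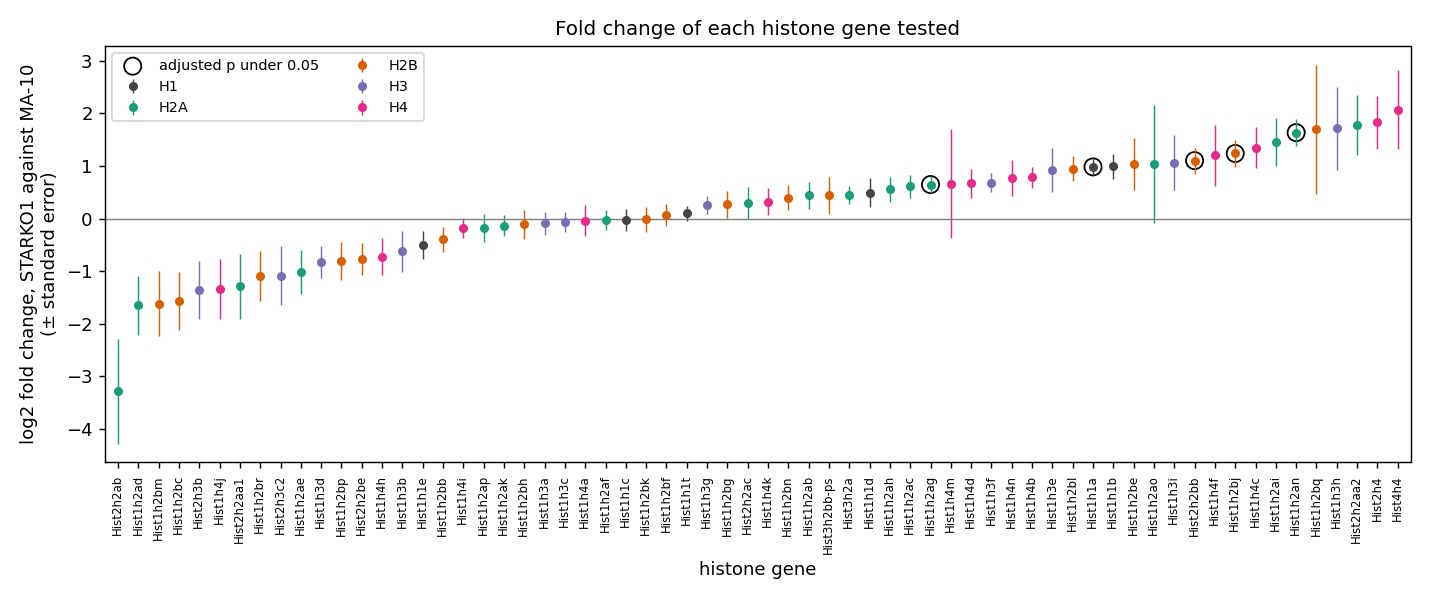
Fitted log2 fold change of STARKO1 against MA-10 (y axis, no unit) for each of the 64 histone genes tested (x axis, in order of fold change), with the standard error as bars and histone classes as colors. Circles mark the 5 genes with an adjusted p under 0.05, all above 0, and the points run from -3.28 for Hist2h2ab to 2.07 for Hist4h4.

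The MA-10 libraries differed more among themselves than the STARKO1 libraries. The highest MA-10 library was a median of 1.91 times the lowest over the members, against 1.78 times over all genes tested, whereas in STARKO1 the same ratio was 1.20 for the members and 1.13 for all genes. MA-10 replicates 2 and 3 were both below the other 4 libraries for 29 members and both above them for 24, with 32.6% and 32.97% of all genes in these patterns. The map of levels by library shows MA-10 replicate 1 closer in color to the STARKO1 columns than to its own group for most genes.

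**Figure D2:**
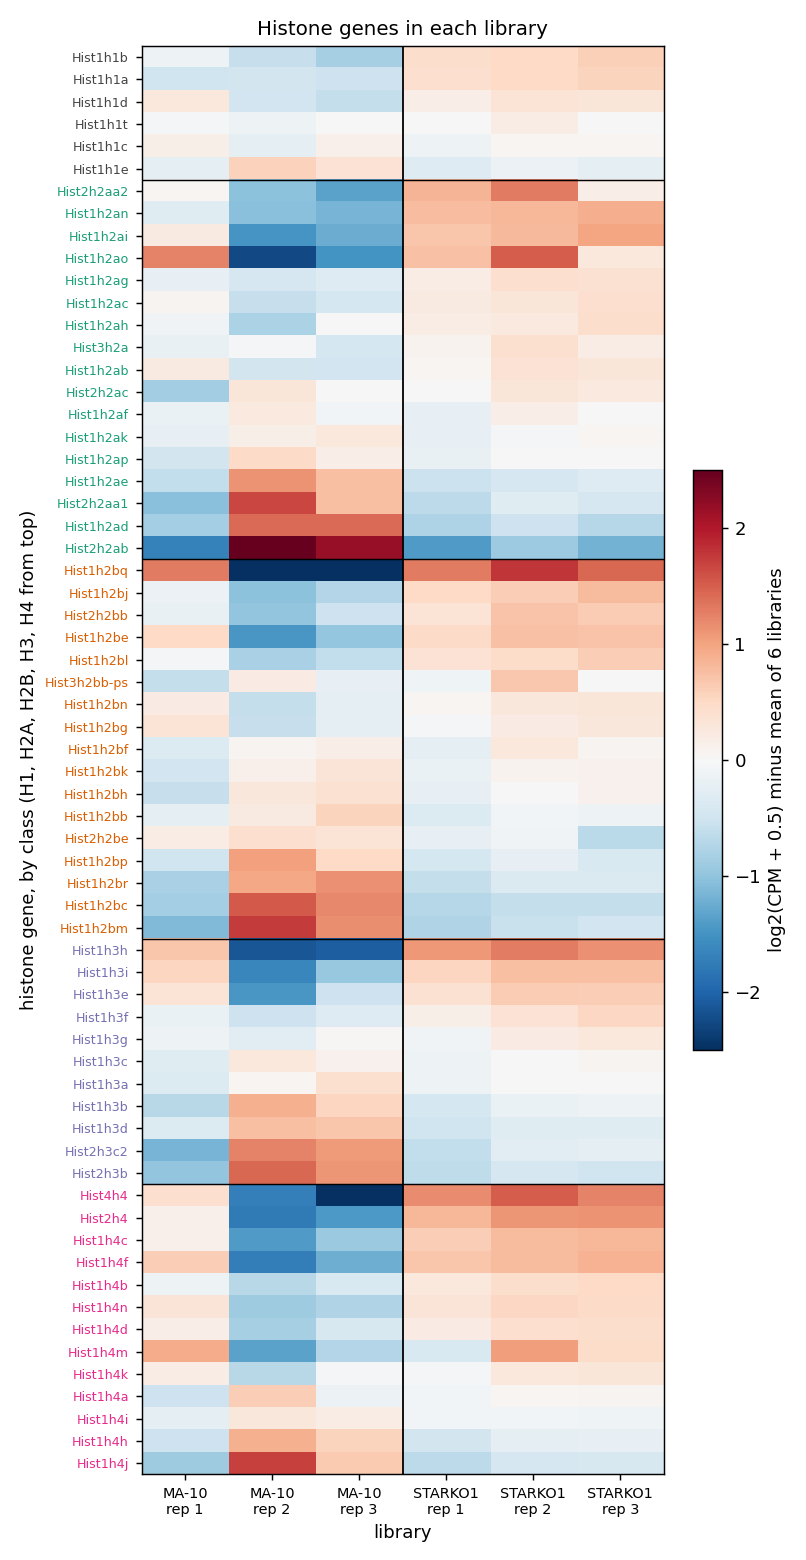
Level of each of the 64 histone genes tested (rows, grouped as H1, H2A, H2B, H3 and H4 from the top, and ordered by fold change in each class) in each library (columns), as log2(CPM + 0.5) minus the mean of the 6 libraries, with the color scale ending at ±2.5. MA-10 replicates 2 and 3 carry the strongest colors, and MA-10 replicate 1 resembles the 3 STARKO1 columns for 46 of the genes.

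Among the linker histones, Hist1h1a (chr13:23763666-23764406), which encodes H1.1, rose in STARKO1, and its 3 MA-10 libraries were close to each other, with the highest at 1.04 times the lowest. Its level was 167, 172 and 165 CPM in MA-10 and 314, 331 and 349 CPM in STARKO1. The cell lines did not overlap, and MA-10 replicate 1 did not differ from its group here. The log2 fold change was 0.98 ± 0.16 (SE, n = 3 and 3, edgeR adjusted p = 0.0196) and 1.07 without MA-10 replicate 1. For Hist1h1b, which encodes H1.5 and was chosen after its values were seen, the MA-10 libraries held 440, 320.3 and 268 CPM and the STARKO1 libraries 649, 678 and 718 CPM. These did not overlap either, but with a log2 fold change of 0.99 ± 0.24 its adjusted p was 0.0508, and the fold change was 1.30 without MA-10 replicate 1. Both genes had whole counts in all 6 libraries (within 1e-06) and no 50-base window shared with another annotated transcript, so their values do not rest on a division of reads between copies.

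The other H1 genes did not pass the test. Hist1h1c (H1.2), one of the members also made as polyadenylated RNA, was at 794, 613 and 785 CPM in MA-10 and 661, 749.7 and 744 CPM in STARKO1, with overlapping groups and a log2 fold change of -0.02 ± 0.21 (SE). Hist1h1e (H1.4) was at 922, 1639.7 and 1412 CPM in MA-10 and at 873, 987 and 941 CPM in STARKO1. Here MA-10 replicate 1 lay within the STARKO1 range and the other MA-10 libraries above it, and the log2 fold change was -0.50 ± 0.27 (adjusted p = 0.213), or -0.62 without MA-10 replicate 1 and 0.013 with scaling by library size alone. The testis linker histone Hist1h1t was at 68.6 to 75.0 CPM in MA-10 and 73.9 to 84.9 CPM in STARKO1, which overlapped. The testis core histones Hist1h2aa and Hist1h2ba, and Hist3h2ba, were not among the 65 members found.

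Of the 17 H2A genes tested, 2 (11.8%, against 4.3% of all genes) rose at the adjusted threshold and none fell (against 4.74%). An unadjusted p under 0.05 was found for 9 (52.9%, against 37.6% of all genes), and DESeq2 called 5 higher and 2 lower. Hist1h2an (chr13:21786826-21787218) held 57.7, 34.1 and 31.3 CPM in MA-10 against 122, 126 and 134 CPM in STARKO1. All STARKO1 libraries were above all MA-10 libraries, with a log2 fold change of 1.63 ± 0.26 (edgeR adjusted p = 0.0178), or 2.05 without MA-10 replicate 1. Only 14.2% of its 50-base windows were unique to it among annotated transcripts, so its counts depend on how the authors' program divided shared reads. Hist1h2ag (chr13:22042460-22042944) held 88.3, 76.4 and 81.3 CPM in MA-10 and 116, 137 and 133 CPM in STARKO1, again without overlap. Its log2 fold change of 0.65 ± 0.16 was just past the threshold (edgeR adjusted p = 0.0494), and was 0.79 without MA-10 replicate 1. Of its 50-base windows 21.1% were unique, so its counts also depend on that division of reads.

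Hist2h2ab, which was chosen after its values were seen, spread widely in MA-10. Its level was 19.3, 513 and 286 CPM in MA-10 and 23.4, 33.2 and 27.5 CPM in STARKO1. MA-10 replicate 1 was below every STARKO1 library and the other MA-10 libraries were far above them. The log2 fold change of -3.28 ± 0.99 did not pass (edgeR adjusted p = 0.0732), and it was -3.74 without MA-10 replicate 1. The same order of libraries held for Hist2h2aa1, the H2A gene with the highest mean CPM. It was at 610.0, 4021 and 2123 CPM in MA-10 and 799, 1023 and 947 CPM in STARKO1. Its log2 fold change was -1.29 ± 0.61 (edgeR adjusted p = 0.170), -1.64 without MA-10 replicate 1 and -0.57 without MA-10 replicate 2. Only 10.6% of its 50-base windows were unique, so its counts depend on how shared reads were divided. Hist1h2ad, also chosen after its values were seen, was at 28.9, 142 and 142 CPM in MA-10 and at 30.6, 36.8 and 32.1 CPM in STARKO1 (log2 fold change -1.65, and -2.01 without MA-10 replicate 1). Hist1h2ap, the second H2A gene by mean CPM, overlapped between the cell lines, with 248, 473 and 383 CPM in MA-10 and 300.1, 340.1 and 339 CPM in STARKO1. Only 6.93% of its 50-base windows were unique, so its counts also depend on that division of reads. Hist3h2a, an H2A gene outside the large clusters, was at 75.8, 82.9 and 63.6 CPM in MA-10 and 91.8, 114 and 98.2 CPM in STARKO1. Its groups did not overlap, but its log2 fold change of 0.45 ± 0.18 did not pass (adjusted p = 0.113), and it was 0.56 without MA-10 replicate 1.

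Of the 17 H2B genes, 2 (11.8%, against 4.3% of all genes) rose and none fell (against 4.74%). At an unadjusted p under 0.05 there were 6 (35.3%, against 37.6% of all genes). DESeq2 called 3 higher and 2 lower, with backgrounds of 11% and 17.5%. Hist1h2bj (chr13:22043214-22043676), the head-to-head neighbour of Hist1h2ag, was at 79.0, 42.8 and 53.0 CPM in MA-10 and at 124, 135 and 153 CPM in STARKO1. There was no overlap, and MA-10 replicate 1 was the MA-10 library nearest to STARKO1. The log2 fold change was 1.24 ± 0.25 (edgeR adjusted p = 0.0350), or 1.61 without MA-10 replicate 1. For Hist2h2bb (chr3:96269752-96270132) the MA-10 libraries held 141, 80.7 and 111 CPM and the STARKO1 libraries 203, 261 and 249.5 CPM. These did not overlap, and the log2 fold change was 1.10 ± 0.25 (edgeR adjusted p = 0.0425), or 1.40 without MA-10 replicate 1. Unique 50-base windows made up 40.6% for Hist1h2bj and 46.4% for Hist2h2bb, so both counts depend on how shared reads were divided.

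Hist1h2bc and Hist1h2bm, H2B genes with a negative fold change, showed the pattern of Hist2h2ab. Hist1h2bc, one of the genes that can be made as polyadenylated RNA and the H2B gene with the highest mean CPM, was at 182, 949.6 and 753 CPM in MA-10 and 201, 216 and 217 CPM in STARKO1. MA-10 replicate 1 lay just below the STARKO1 libraries. The log2 fold change of -1.57 ± 0.55 did not pass (edgeR adjusted p = 0.0931). It was -1.92 without MA-10 replicate 1 and -1.15 without MA-10 replicate 2. Hist1h2bm, chosen after its values were seen, was at 74.2, 536 and 358 CPM in MA-10 and 94.1, 108 and 114 CPM in STARKO1 (log2 fold change -1.61 ± 0.63, adjusted p = 0.114, and -1.99 without MA-10 replicate 1). Hist1h2bb was at 191, 264 and 332 CPM in MA-10 and 177, 215 and 206 CPM in STARKO1, with overlap. Of the other members known as polyadenylated forms, Hist1h2be went the other way, with 117, 29.6 and 42.1 CPM in MA-10 and 114, 137 and 136 CPM in STARKO1. Its log2 fold change was 1.04, and it was 1.94 without MA-10 replicate 1 and 0.70 without MA-10 replicate 2. Its annotated gene overlaps Hist1h1e on the same strand, so the assignment of reads there is uncertain. Hist2h2be, at 39, 31 and 29 counts in MA-10 and 37, 30 and 18 in STARKO1, or 2.23 to 2.69 against 1.01 to 1.77 CPM, was the only member with every STARKO1 library below every MA-10 library (log2 fold change -0.77 ± 0.30, adjusted p = 0.116, and -0.75 without MA-10 replicate 1).

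No H3 gene was called, while 3 of 11 (27.3%, against 37.6% of all genes) had an unadjusted p under 0.05 and DESeq2 called 1 higher. The H3 genes with the highest mean CPM were Hist2h3c2 and Hist1h3b, and both were high in MA-10 replicates 2 and 3 alone. Hist2h3c2 was at 201, 1069 and 940.2 CPM in MA-10 and 295, 369 and 379 CPM in STARKO1, and Hist1h3b was at 253, 756 and 589.7 CPM in MA-10 and 303, 364 and 374 CPM in STARKO1. Their log2 fold changes were -1.08 and -0.62, and -1.44 and -0.86 without MA-10 replicate 1. Without MA-10 replicate 2 that of Hist1h3b was -0.28. Hist1h3h, chosen after its values were seen, had the reverse order, with 29.8, 3.73 and 3.96 CPM in MA-10 and 39.1, 44.9 and 40.7 CPM in STARKO1. Its log2 fold change was 1.71 ± 0.78 (edgeR adjusted p = 0.156), and it was 3.52 without MA-10 replicate 1. Only 6.08% of its 50-base windows were unique, so these values depend on how shared reads were divided.

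No H4 gene was called either. At an unadjusted p under 0.05 there were 5 of 13 (38.5%, against 37.6% of all genes), all of them higher, and DESeq2 called 4 higher. Hist4h4 (chr6:136801553-136804415), which lies alone outside the clusters, held 36.0, 7.81 and 3.79 CPM in MA-10 and 61.3, 76.6 and 63.4 CPM in STARKO1. The groups did not overlap, yet MA-10 replicate 1 was several times the other MA-10 libraries and the log2 fold change was 2.07 ± 0.75 (adjusted p = 0.09995), or 3.62 without that library. Hist2h4, chosen after its values were seen, was similar, with 22.2, 5.64 and 7.22 CPM in MA-10 and 36.4, 44.5 and 44.9 CPM in STARKO1 (log2 fold change 1.83 ± 0.51, adjusted p = 0.0628, and 2.79 without MA-10 replicate 1). Further H4 genes chosen in that way, Hist1h4b, Hist1h4c and Hist1h4f, also had all STARKO1 libraries above all MA-10 libraries, with log2 fold changes of 0.78, 1.35 and 1.20, and of 1.02, 2.01 and 2.36 without MA-10 replicate 1. In the whole class, STARKO1 lay above MA-10 for 6 of 13 genes (46.2%, against 21.5% of all genes), and the cell lines overlapped for 7. Hist1h4d and Hist1h4h had the highest mean CPM among H4 genes and had fold changes of opposite sign. Hist1h4d was at 242, 121 and 163 CPM in MA-10 and 251, 291 and 293 CPM in STARKO1, without overlap (log2 fold change 0.67 ± 0.28, adjusted p = 0.128, and 1.06 without MA-10 replicate 1). Hist1h4h was at 145, 382 and 304 CPM in MA-10 and at 149.96, 174 and 179 CPM in STARKO1, with overlap (log2 fold change -0.73 ± 0.35, adjusted p = 0.172, and -0.94 without MA-10 replicate 1).

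**Figure D3:**
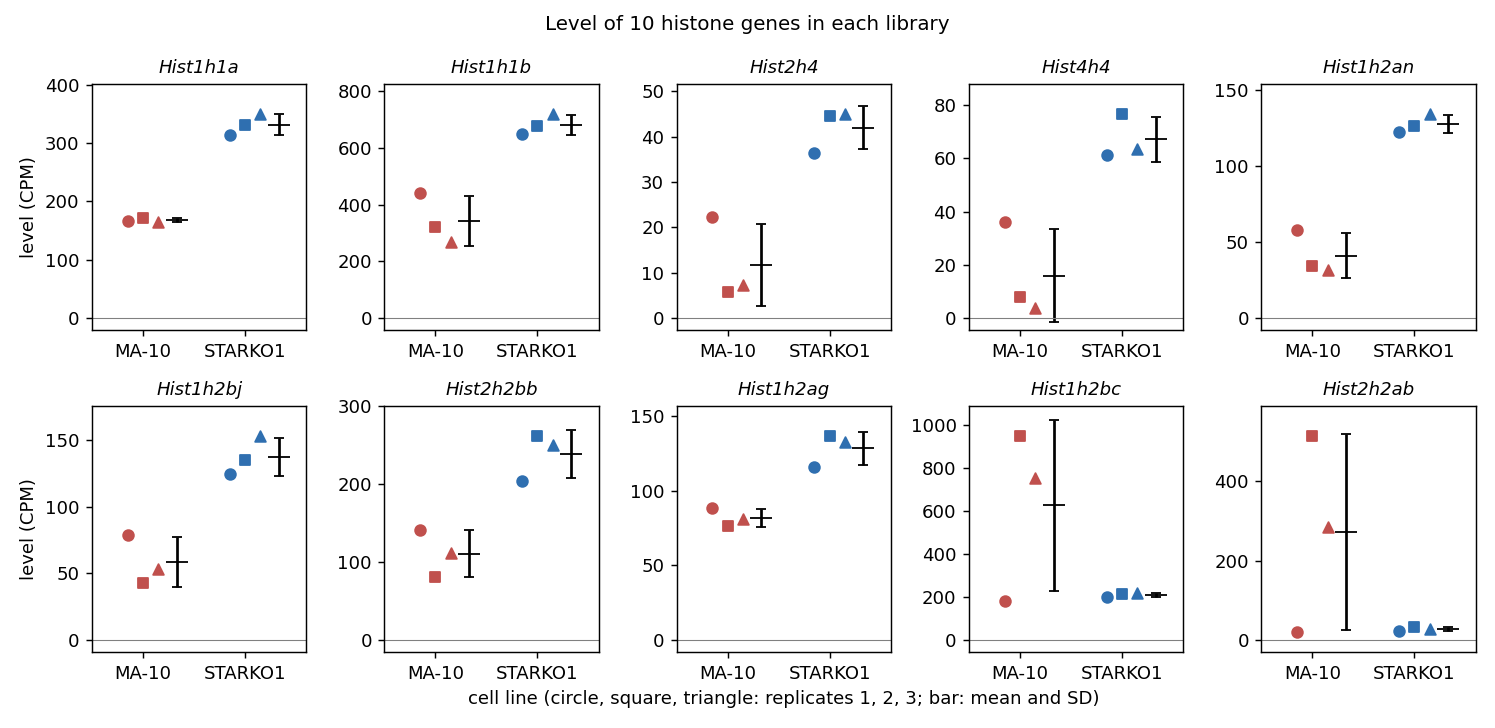
Level in CPM (y axes, each with its own range) of 10 histone genes in the MA-10 and STARKO1 libraries, with circle, square and triangle for replicates 1, 2 and 3 and a bar for mean and SD. The 10 are the 5 genes called, Hist1h1b, Hist2h4, Hist4h4, Hist1h2bc and Hist2h2ab, and were not drawn at random. In the first 8 panels all STARKO1 points lie above all MA-10 points, as for 21 of the 64 members tested (32.8%, against 21.5% of all genes). In Hist1h2bc and Hist2h2ab MA-10 replicate 1 lies at 182 and 19.3 CPM, below the STARKO1 points, and the other MA-10 points far above them. Hist1h1t and Hist2h2be, which also had whole counts, are not shown.

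Each of the 5 genes was also called without MA-10 replicate 1. Only Hist1h1a was called by edgeR without MA-10 replicate 2, where 4.19% of all genes were called in either direction. No member was called without MA-10 replicate 3 or without STARKO1 replicate 1, 2 or 3 (13 to 17 members at an unadjusted p under 0.05), where 1.49%, 0.73%, 1.11% and 0.76% of all genes were called. Where the calls were lost the log2 fold changes were 0.95 to 1.11 for Hist1h1a, 1.47 to 1.75 for Hist1h2an, 1.06 to 1.38 for Hist1h2bj, 0.92 to 1.28 for Hist2h2bb and 0.60 to 0.80 for Hist1h2ag. Hist1h1a and Hist1h2an each passed in 7 of the 9 fits with another test, scaling, filter, block or offset, Hist1h2bj in 5, Hist2h2bb in 4 and Hist1h2ag in 1.

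Sums over each class do not depend on how reads were divided between near-identical copies of that class. The 65 members together took 1.06%, 1.12% and 1.13% of the total count in MA-10 and 1.23%, 1.41% and 1.40% in STARKO1. Every STARKO1 library was above every MA-10 library on this scale. That total includes 7SL RNA, at 14.4% and 6.63% in MA-10 replicates 2 and 3 and 1.81% to 2.37% in the other libraries. Shares of the count without 7SL RNA were not computed, so the separation may not hold for them. After TMM scaling the direction did not hold, with 9193, 17192 and 14046 CPM in MA-10 and 10350.1, 11997 and 11946 CPM in STARKO1, which overlapped. With 3 libraries against 3, a two-sided exact permutation test cannot give a p below 0.1 for a single value such as a sum, so no sum was tested. In bulk RNA, more cells making histone mRNA and more histone mRNA per cell cannot be told apart.

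After TMM scaling the classes differed in their spread within MA-10. The H1 sum was 3084, 3222 and 3083 CPM in MA-10 and 3211, 3559.6 and 3536 CPM in STARKO1, and the H4 sum was 1007, 1139 and 980.2 CPM in MA-10 and 1119, 1294 and 1302 CPM in STARKO1. On this scale the highest MA-10 library was 1.04 times the lowest for H1 and 1.16 times for H4, and both sums overlapped slightly with STARKO1. As a share of the total count the same ratio ranged from 1.31 for H2B to 1.69 for H1, and the H1 and H4 shares of every STARKO1 library were above those of every MA-10 library. For H2A the sums were 2419, 6842 and 4514 CPM in MA-10 against 2947, 3509.5 and 3439 CPM in STARKO1. In CPM, MA-10 replicate 1 was the lowest of all 6 libraries for the H2A, H2B and H3 sums and the other MA-10 libraries were the highest. The H2B sums were 1427, 2853 and 2688 CPM in MA-10 and 1588 to 1883 CPM in STARKO1, and the H3 sums were 1255, 3136 and 2779.5 CPM in MA-10 and 1485 to 1786 CPM in STARKO1. By cluster and after TMM scaling, the highest MA-10 library was 1.34 times the lowest for the Hist1 sum and 5.28 times for the Hist2 sum, which was 1259.5, 6649 and 4236 CPM in MA-10 and 1778 to 2241 CPM in STARKO1.

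**Figure D4:**
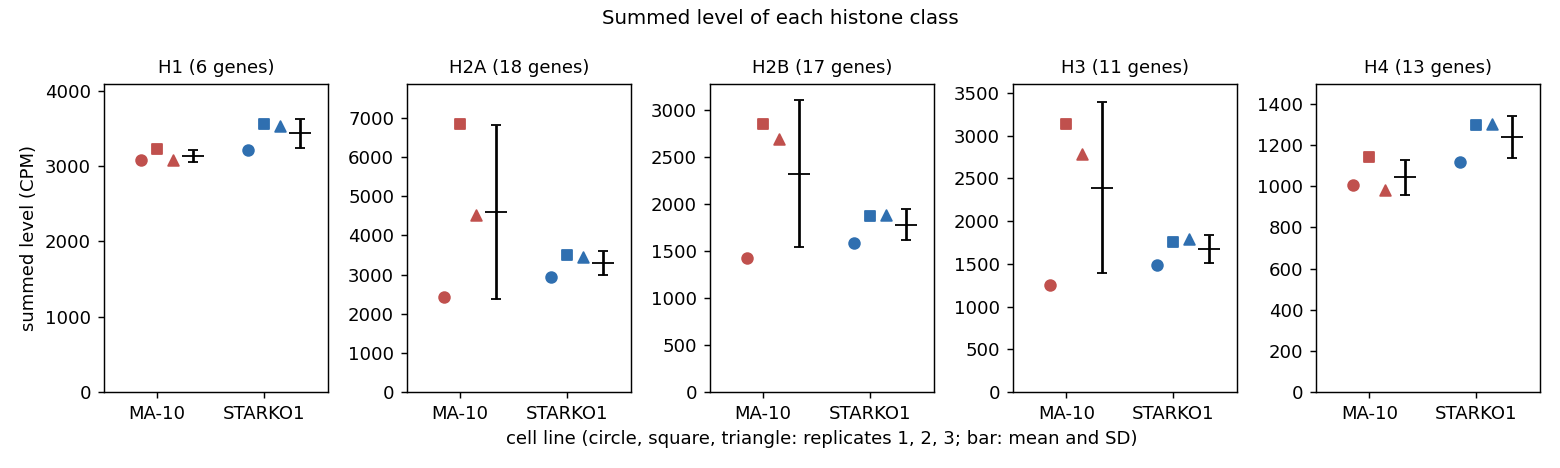
Summed level in CPM (y axes, each with its own range from 0) of all members of each histone class in the MA-10 and STARKO1 libraries, with circle, square and triangle for replicates 1, 2 and 3 and a bar for mean and SD. The H2A, H2B and H3 sums of MA-10 replicate 1 lie below all STARKO1 points and those of MA-10 replicates 2 and 3 above them, while the H1 and H4 sums of MA-10 lie between 3083 and 3222 CPM and between 980.2 and 1139 CPM.

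Read sharing between copies could bear on single genes. Whole counts in all 6 libraries, which leave no trace of divided reads, were found for 6 members, Hist1h1a, Hist1h1b, Hist1h1t, Hist2h2be, Hist2h4 and Hist4h4. Their median log2 fold change was 0.99, 5 of 6 were positive, and their sum was 741, 577 and 522 CPM in MA-10 and 1136, 1217 and 1251 CPM in STARKO1, without overlap. Of them 1, Hist1h1a, was called. The 58 other members tested had a median of 0.28. By sequence, the 8 members with at least 90% of their 50-base windows unique had a median of 0.74 and the 15 with under 20% had a median of 0.95. Hist2h2aa2, chosen after its values were seen, had no unique window and was assigned 38, 9 and 6 counts in MA-10 and 98, 100 and 43 in STARKO1, while its near-identical copy Hist2h2aa1 had between 10651 and 46366, and its own level is therefore uncertain.

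The annotated 3′ end was compared because total RNA holds both forms of histone mRNA. The annotation does not show which form was present in these cells, so the groups below are groups of annotated transcripts and not of mRNA forms. The 44 members with a stem-loop in the annotated transcript had a median log2 fold change of 0.18, with 24 positive, and the 20 tested members without one had 0.50, with 13 positive. With offsets for GC content these medians were -0.0022 and 0.17, and without MA-10 replicate 1 they were 0.16 and 0.72. For 21 members the annotated transcript went on for at least 100 bases past the stem-loop, as for Hist4h4 and Hist2h4 (2445 and 1257 bases), and their median was 0.27, against 0.07 for the 23 that ended sooner, an order that turned with offsets for gene length (0.61 and 0.65). These medians were 0.56 and 0.02 without MA-10 replicate 1 and 0.19 and -0.24 with offsets for GC content. Among the 9 protein-coding members whose annotated transcript is the coding sequence alone, which include Hist1h2an and Hist2h2bb, 8 were positive, with a median of 1.06. These 9 are among the 20 without a stem-loop, and their annotation holds no sequence past the stop codon in which it could be found. The sum of these 9 was 1027, 694 and 839 CPM in MA-10 and 1187, 1368 and 1417 CPM in STARKO1, without overlap. None of the 9 had whole counts in all 6 libraries, and 6.08% to 47.7% of their 50-base windows were unique. Unlike a class sum, this sum therefore depends on how shared reads were divided. Of all genes tested, 47.1% had a positive fold change.

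Many histone genes lie head to head and share the region between their starts. There were 13 such pairs on opposite strands, with 173 to 660 bases between the annotated starts. The fold changes had the same sign in 5 pairs, both positive in 4 and both negative in 1, and opposite signs in the other 8. With scaling by library size alone 7 pairs had the same sign, all of them positive. Hist1h2ag and Hist1h2bj, 270 bases apart, were the only pair with both genes called. Neither gene had whole counts in all libraries. Hist1h2an was called higher at 1.63 while its partner Hist1h2bp had a log2 fold change of -0.81, and Hist1h2bc at -1.57 was paired with Hist1h2ac at 0.61.

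**Figure D5:**
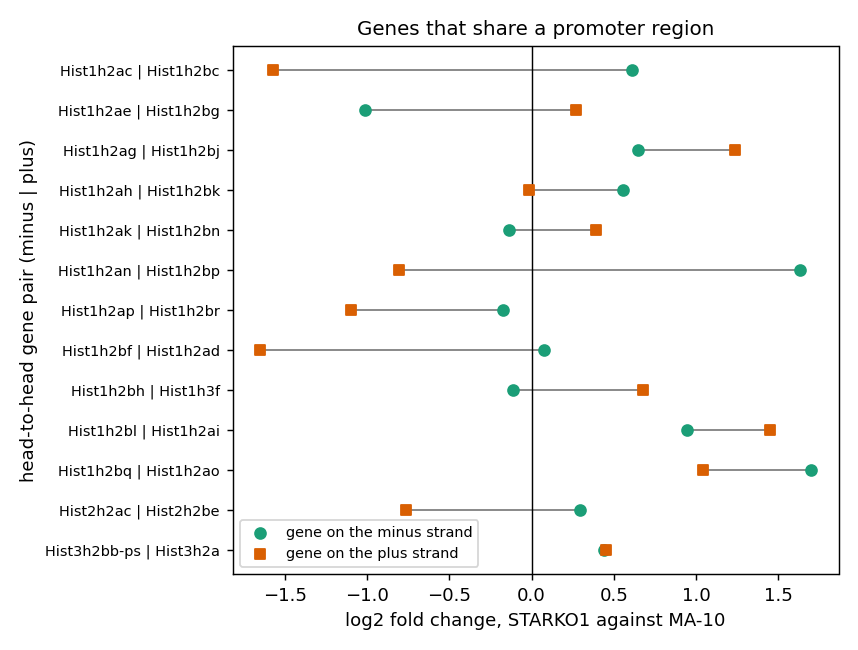
Fitted log2 fold change of STARKO1 against MA-10 (x axis) for both genes of each of the 13 head-to-head pairs (y axis), with circles for the gene on the minus strand and squares for the gene on the plus strand, joined by a line. In 5 pairs both points lie on the same side of 0, among them Hist1h2ag and Hist1h2bj at 0.65 and 1.24, and in 8 the line crosses 0.

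Genes that act with the histone genes were taken from lists chosen for their roles. Of 20 tested genes that transcribe or process histone mRNA, 1 rose and 0 fell, against 4.3% and 4.74% of all genes, with 7 (35%) at an unadjusted p under 0.05 and 1 higher and 4 lower by DESeq2. The gene that rose was Srrt, which joins the cap-binding complex to RNA processing, at 87.3, 76.2 and 105 CPM in MA-10 and 165, 153 and 192 CPM in STARKO1 (log2 fold change 0.92 ± 0.19, adjusted p = 0.0356). Slbp, whose protein binds the stem-loop, followed the order of Hist2h2ab, with 92.7, 443 and 263 CPM in MA-10 and 109.99, 120.1 and 110.1 CPM in STARKO1, and did not pass (log2 fold change -1.23 ± 0.51, adjusted p = 0.127, and -1.54 without MA-10 replicate 1). Npat, the S phase activator of histone transcription, was at 40.0, 36.6 and 37.5 CPM in MA-10 and 38.8, 36.0 and 36.1 CPM in STARKO1, with overlap and a log2 fold change of -0.04 ± 0.14.

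Of 11 genes tested on the list of replacement histones and other variants, 1 of them a pseudogene, 1 rose and 0 fell, with 5 (45.5%) at an unadjusted p under 0.05 and 1 higher and 3 lower by DESeq2. H1foo, the oocyte linker histone, was at 1.95, 2.34 and 0.969 CPM in MA-10 and 5.68, 5.25 and 4.55 CPM in STARKO1 (log2 fold change 1.55 ± 0.34, edgeR adjusted p = 0.0399). H2afz, for the variant H2A.Z, was at 221, 761 and 543 CPM in MA-10 and 267 to 286 CPM in STARKO1, and H3f3b, for H3.3, was at 333, 802 and 509 CPM in MA-10 and 296 to 342 CPM in STARKO1. Neither passed (log2 fold changes -0.88 and -0.81, and -1.14 and -0.98 without MA-10 replicate 1), and in both MA-10 replicate 2 was the highest library, while MA-10 replicate 1 was below STARKO1 for H2afz and within it for H3f3b. None of the 24 histone chaperones was called by edgeR, with 6 (25%) at an unadjusted p under 0.05 and 2 higher and 3 lower by DESeq2. Of 48 genes of S phase, 3 (6.25%, against 4.3% of all genes) rose and 0 fell, with 9 (18.8%, against 37.6%) at an unadjusted p under 0.05 and 8 higher and 2 lower by DESeq2. They were Pola2, a subunit of DNA polymerase alpha (log2 fold change 0.84), Gins1, a subunit of the replicative helicase (0.69), and Uhrf1, which keeps DNA methylation through replication (0.71), and the median of the list was 0.04. None of the 17 other RNAs without a poly(A) tail was called by edgeR, with 6 (35.3%) lower at an unadjusted p under 0.05 and 5 lower by DESeq2, and their median was -0.40. Each of the 5 genes called in these lists was also called without MA-10 replicate 1 and lost its call without any 1 of the other libraries.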

How the data were processed

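The samples comprised 3 libraries of MA-10 and 3 of STARKO1 cells, grouped by the labels. The authors deposited 1 table of estimated counts per gene, not scaled, in which 54.2% of genes were not whole (within 1e-06) in at least 1 library, and every gene reached 10 counts in total. STAR 2.6.1d, Partek and the mouse build mm10 are listed in the submitters' processing notes, and the counting program's annotation is not given in the sources used here. All columns of the table belonged to these libraries.

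After rounding of the estimated counts, edgeR 4.0.16 was used in R 4.3.3 (filterByExpr, TMM, quasi-likelihood test, Benjamini-Hochberg), without a replicate block. The scripts were tested on simulated data. The standard error is the log2 fold change divided by the square root of F. Alternatives were DESeq2 1.42.0, other scalings and filters, a replicate block, offsets for length and GC content, an adjusted p under 0.1, and leaving out each library. Counting error is small for genes with many counts but not for those with few, such as Hist2h2be (18 to 39 counts) and H1foo (11 to 132 counts). The spread between libraries (biological coefficient of variation 0.291) also limits the precision. Coordinates, transcripts and 50-base windows came from GENCODE M21 for GRCm38, and promoters from RefSeq.

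Named genes were the members called, the 2 with the highest mean CPM in each class, known polyadenylated and testis members, those outside the 2 large clusters, the genes called in other lists, and Slbp, Npat, H2afz, H3f3b and Star. The members and lists were chosen with earlier results of these data known.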

Additional observations from a re-analysis of the deposited data

How the results depend on the processing

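The number of histone genes called, 5 as reported, was 19 with DESeq2 (15 higher, 4 lower), 18 at an adjusted p under 0.1, 8 with offsets for GC content, 3 with upper quartile scaling, 2 with offsets for gene length, 1 with scaling by library size alone and 1 among members with whole counts in all 6 libraries. Requiring at least 10 counts in every library gave 4, and no filter also gave 4. Leaving out each library in turn gave 0 to 48, the highest without MA-10 replicate 1. The median log2 fold change, 0.31 as reported, was 0.46 with upper quartile scaling, 0.72 with library size, 0.70 with length offsets, 0.075 with GC offsets and 0.99 for members with whole counts. It ranged from 0.20 to 0.48 over the fits without 1 library. The cause of these changes was not tested.

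Libraries share replicate numbers, and the deviations of same-numbered libraries correlated at -0.0165, 0.0455 and 0.0201. These correlations gave no sign of pairing by number. The STARKO1 libraries differed little among themselves, so a common origin of same-numbered libraries could go unseen, and it was not tested. A replicate block left 1 histone gene called, Hist1h2an. With GC offsets and the replicate block 1 was called, and the median was 0.084. Either block left 0 called in the lists for histone mRNA processing, replacement histones and S phase.

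The histone mRNA processing list had 5 genes called with DESeq2, 4 at an adjusted p under 0.1, 0 with GC offsets, 0 with library size and 0 to 14 without 1 library. The replacement histones had 4, 3 and, with library size, 0, and 0 to 9 without 1 library. The chaperones had 5 and 3, and 0 to 21 without 1 library. The S phase genes had 10 and 8, 1 with at least 10 counts in every library and 1 with no filter. They had 1 with upper quartile scaling, 0 with library size and 0 to 29 without 1 library. Without MA-10 replicate 1 each list had its highest count.

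For single named genes, 479 values kept their direction and side of the threshold, 93 lost the threshold, 44 gained it and 23 turned sign. Hist1h1c turned to 0.0010 with at least 10 counts in every library, 0.031 with no filter, 0.30 with length offsets, 0.38 with library size, 0.12 with upper quartile scaling, and its range without 1 library was -0.14 to 0.13. Hist1h1e turned to 0.013 with library size. Hist1h2ap turned to 0.46 with length offsets, 0.35 with library size, 0.00031 with upper quartile scaling with a range of -0.30 to 0.049 without 1 library. Hist1h2bb turned to 0.20 with length offsets and 0.095 with library size, and Hist1h3b to 0.090 with length offsets. Npat turned to 0.015 with no filter, 0.22 with GC offsets, 0.24 with GC offsets and block, 0.38 with library size, 0.10 with upper quartile scaling, with a range of -0.070 to 0.086 without 1 library. None of these had been called.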
